A study of Equus caballus with 10 samples.

Results

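Semaphorins, ephrins, netrins and Slits are guidance ligands, and their receptors are the plexins and neuropilins, the Eph receptors, the netrin receptors and the Robos. The genes described here are those whose symbols name a member of these families, together with NRP1, NRP2, DCC and NEO1. They were 70 of the 29196 genes in the deposited table, 35 ligands and 35 receptors. Guidance proteins were first described as cues that attract or repel growing axons. Cells outside the nervous system, fibroblasts among them, also use them to set their shape, adhesion and movement, mainly through small GTPases that act on actin. Tendon is sparsely innervated and poorly vascularized, and guidance proteins are studied there as signals to ingrowing nerves and vessels as well as to the tendon cells themselves.

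The cells were primary tenocytes from the superficial digital flexor tendon of 5 horses. They were kept for 14 days in gels of bovine collagen type I. Cells of all libraries received PF-06650833 at 100 nM every day, a compound that blocks the kinase IRAK-4 downstream of the IL-1 receptor. In 5 of the 10 libraries IL-1β was present as well, at 17 ng/ml, renewed every 3 to 4 days. Each donor gave 1 library to each group, and the donors are numbered 1 to 5. Untreated cells and cells with IL-1β alone were not analysed here, so every difference below is that between IL-1β plus PF-06650833 and PF-06650833 alone. Differences are on the log2 scale, with the standard error (SE) from limma.

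Values are deposited log2 expression values, normalized between libraries, on which 3.43 stands for 0 reads. The depth estimated from these values was 26289864 to 36128200 reads per library, and the groups overlapped in it. Guidance genes took 0.224% to 0.385% of those reads. Of 12 tenocyte and fibroblast markers 11 were tested, and TNMD, the gene of tenomodulin, was at 0 reads in all 10 libraries. The tendon transcription factors SCX (log2 fold change -3.24, adjusted p = 6.11e-04) and MKX (-2.85, adjusted p = 0.00554) were lower in the group with IL-1β, and 0 markers of the list were called higher. With the donor block 5 were lower, the others being COL1A1 (-1.38, adjusted p = 0.0147 with the block and 0.0682 without), COL1A2 (-1.28, adjusted p = 0.0169 and 0.0614) and THY1 (-1.02, adjusted p = 0.0367 and 0.0836). Without the block COL1A1 (-1.52), COL1A2 (-1.47) and THBS4 (-1.63) were called when donor 4 was left out, and also without its library with IL-1β (-1.71, -1.57 and -2.13). THY1 was called without donor 3 (-1.30), without its library with PF-06650833 alone (-1.30) and without the library of donor 2 with IL-1β (-1.24). DCN, the gene of decorin, was not called, at 1.01 and with a higher value in 5 of 5 donors, and neither were PDGFRA (0.46) and LUM (0.33). Of 9 endothelial markers 5 were tested and 0 were differentially expressed, and their summed reads were 20 to 48 per library without IL-1β and 9 to 38 with it. In a list of 10 leukocyte markers, of which 3 were tested, AIF1, TYROBP and CD3E were at 0 reads in all libraries and PTPRC had at most 3 reads, while CD68, which fibroblasts also express, was higher (log2 fold change 1.70, adjusted p = 0.00795). The summed reads of that list were 51 to 1587 and 153 to 1593, and most of the highest sums came from CD14. In donors 1 to 5 CD14 was at 10.72, 8.37, 3.43, 3.43 and 3.43 without IL-1β and at 10.73, 9.50, 3.43, 8.75 and 10.27 with it, higher in 4 donors and lower in 0 (2.66, adjusted p = 0.34). Of 9 nerve and Schwann cell markers 5 were tested and 0 were differentially expressed, S100B had at most 1 read, and the summed reads were 2136 to 5885 and 1871 to 4197, nearly all of them from TUBB3. In the list of 8 mural markers RGS5 (-1.96), CSPG4 (-1.84) and DES (-2.98) were lower, with summed reads of 22614 to 194060 and 35176 to 58990. NOTCH3 (-0.61), MYH11 (-0.56) and CNN1 (-0.43) were not called in either fit, nor was MCAM, whose mean was higher (0.34). ACTA2 was called lower with the donor block (-1.01, adjusted p = 0.0334, and 0.227 without) or when donor 3 (-1.33) or its library with PF-06650833 alone (-1.50) was left out. Of 6 epithelial markers EPCAM and KRT5 were at 0 reads and CDH1 was lower (-2.22), with summed reads of 408 to 1457 and 40 to 315. Leaving out donor 1, 2 or 5 ended the call of RGS5 (-2.01, -1.79 and -1.68), leaving out donor 1 or 5 that of CDH1 (-2.22 and -2.06), and leaving out donor 5 that of CD68 (1.51). The part of these markers in the guidance results was not tested, and in bulk RNA fewer cells of a type and less RNA per cell cannot be told apart.

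Of the 70 guidance genes 60 had reads in enough libraries to be tested. With IL-1β plus PF-06650833 the plexin C1 gene rose most on the deposited scale, and SEMA5A, SEMA6D, SEMA3F, EPHA6, EPHB6 and NEO1 rose with it. The receptor genes EPHB3, EPHB2 and PLXNA2 and the ligand genes SEMA4F, SEMA3B and NTN3 fell. These 13 genes were differentially expressed (21.7% of those tested), 7 higher and 6 lower, where 6.68% of the 17992 genes tested were. In each direction the share was 11.7% against 3.11% of all genes for higher, and 10% against 3.57% for lower. The median log2 fold change of the 60 genes was -0.07, beside -0.01 over all genes, and the median of its absolute value was 0.50 beside 0.25. With the donor as a block 17 guidance genes were differentially expressed (28.3%, against 8.26% of all genes). They were the same 13 with SEMA3A, SEMA7A, NTN4 and UNC5C added, 10 higher and 7 lower, where 4.01% of all genes were higher and 4.25% lower. At an adjusted p below 0.05 with no minimum fold change the count was 15 (25% against 15.5% of all genes), and 24 with the donor block (40% against 22.2%).

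In 12 of the 60 genes (20%) the values of the groups did not overlap, 7 higher and 5 lower, against 12.7% of all genes, 6.29% higher and 6.41% lower. In 27 of the 60 genes all 5 donors moved alike, that is 45% of them, beside 32.7% of all genes. No tested member (0) was at 0 reads throughout one group. The remaining 10 members, EPHA1, EPHA5, EPHB1, DCC, NTN5, ROBO2, ROBO4, SEMA3G, SEMA5B and SLIT1, never exceeded 3 estimated reads in a library and were not tested. DCC is the founding netrin receptor, ROBO2 the second of the main Slit receptors and ROBO4 a Robo typical of endothelium, and none of them was detectable at this depth beyond those few reads.

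**Figure D1:**
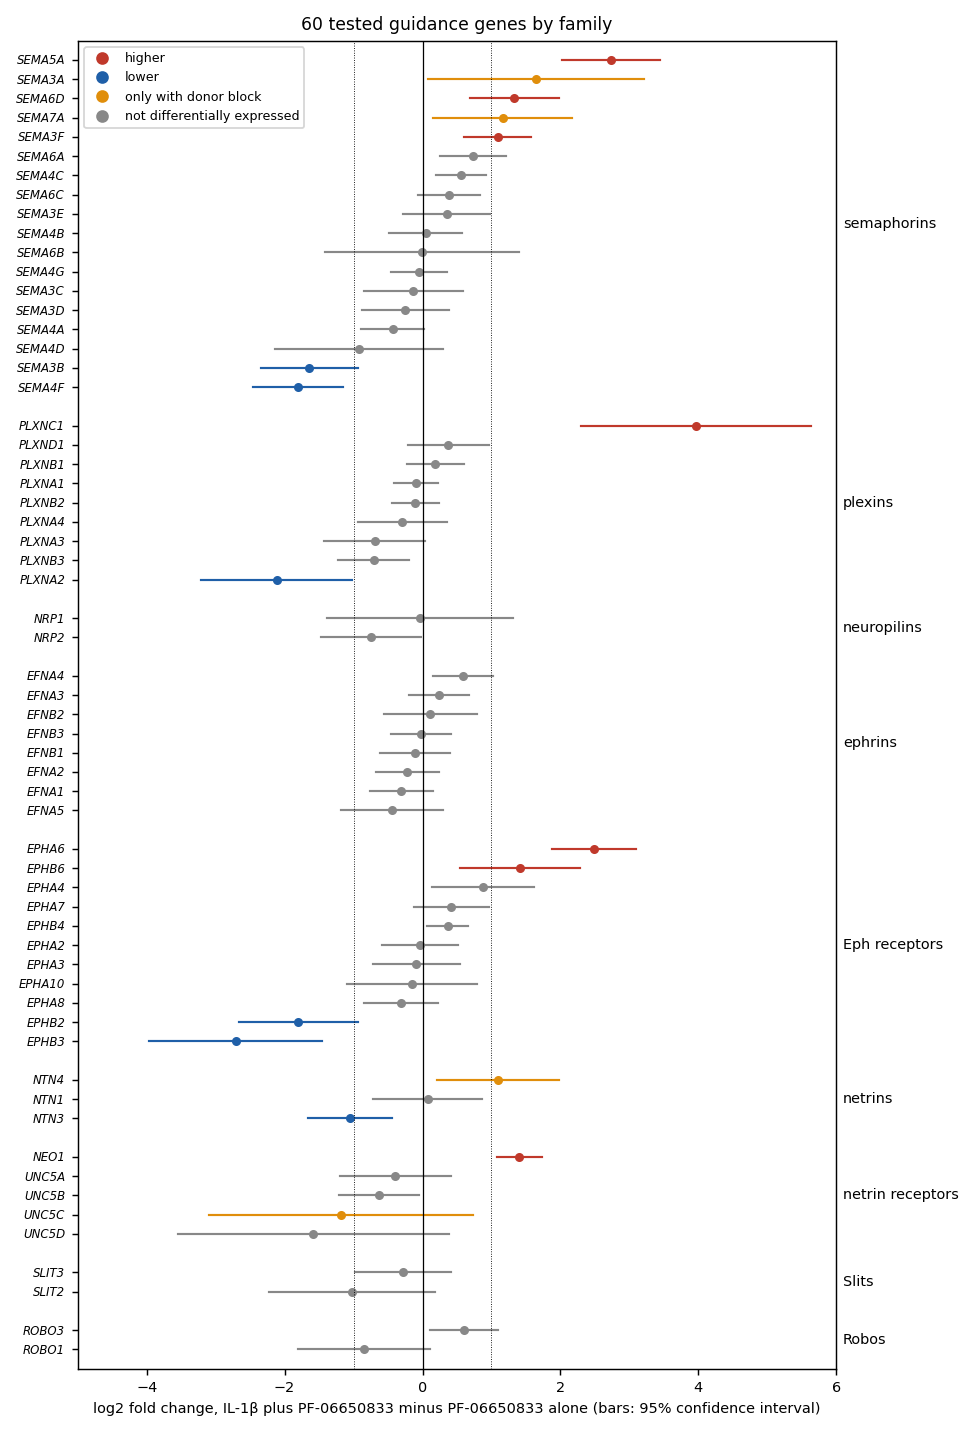
Log2 fold change (x axis, IL-1β plus PF-06650833 minus PF-06650833 alone) of the 60 tested guidance genes, grouped by family, with 95% confidence intervals from limma and dotted lines at the minimum fold change of 1 in either direction (red higher, blue lower, orange called only with the donor block, grey not called). Semaphorins, plexins and Eph receptors each have both red and blue members. The 8 ephrins, 3 above 0 and 5 below, are all grey and lie between -0.44 and 0.59.

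Semaphorins are ligands, secreted in class 3 and membrane-bound in the other vertebrate classes. Of the 20 semaphorin genes 18 were tested, of which 3 rose (SEMA5A, SEMA6D and SEMA3F) and 2 fell (SEMA4F and SEMA3B). Their median log2 fold change was 0.20. SEMA5A and SEMA6D encode transmembrane ligands. SEMA5A, which binds plexin B3, was at 4.56, 3.95, 5.34, 5.36 and 4.07 in donors 1 to 5 with PF-06650833 alone, and at 7.19, 7.60, 6.85, 7.55 and 7.75 with IL-1β plus PF-06650833. All 5 libraries with IL-1β lay above all 5 without it. The mean rose from 4.66 ± 0.67 (SD, n = 5) to 7.39 ± 0.36 (SD, n = 5), a difference of 2.73 (SE 0.33, adjusted p = 4.98e-04). It rested on 1 to 21 estimated reads without IL-1β and on 85 to 171 with it. At such depths the deposited scale understates changes. On a log2(normalized count + 1) scale the fold change was 4.21, above the 4.08 of PLXNC1.

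SEMA6D, a ligand of plexin A1, was at 7.06, 7.34, 7.39, 6.78 and 7.53 without IL-1β and at 8.65, 7.77, 8.15, 9.48 and 8.71 with it. The groups did not overlap, and the rise was from 7.22 ± 0.30 (SD, n = 5) to 8.55 ± 0.64 (SD, n = 5), a difference of 1.33 (SE 0.29, adjusted p = 0.0117). Donor 4 had the largest difference, 2.70, and donor 2 the smallest, 0.43. Without donor 1 the gene was no longer differentially expressed (1.27, adjusted p = 0.0698), nor without donor 4, where its fold change was just under the minimum (0.99, adjusted p = 0.0263). These fits had no donor block, and with the block and all donors the adjusted p was 0.0191.

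The class 3 ligands SEMA3F and SEMA3B moved in opposite directions. SEMA3F, which signals through neuropilin 2 and is known to repel endothelial and tumour cells, was at 10.38, 10.64, 10.09, 10.23 and 10.63 without IL-1β and at 11.49, 11.81, 11.14, 10.85 and 12.11 with it. The values rose in every donor and the groups did not overlap. The mean went from 10.39 ± 0.24 (SD, n = 5) to 11.48 ± 0.50 (SD, n = 5), a difference of 1.09 (SE 0.22, adjusted p = 0.00789). This lies close to the minimum fold change, and it was 0.93 without the library of donor 5 with IL-1β and 0.99 without donor 5, below that minimum.

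SEMA3B, which binds both neuropilins, fell. It was at 9.29, 10.38, 9.61, 10.63 and 10.30 without IL-1β and at 7.88, 8.20, 8.79, 9.22 and 7.92 with it, and each library with IL-1β was below each library without. The difference was -1.64 (SE 0.32, adjusted p = 0.00644), from 10.04 ± 0.56 (SD, n = 5) to 8.40 ± 0.59 (SD, n = 5). SEMA4F, a transmembrane class 4 semaphorin, fell from 9.91, 10.43, 10.14, 10.80 and 10.83 to 7.88, 8.0, 9.01, 9.30 and 8.89 in donors 1 to 5. Its groups lay apart too. The means were 10.42 ± 0.40 (SD, n = 5) and 8.61 ± 0.63 (SD, n = 5), a difference of -1.81 (SE 0.30, adjusted p = 0.00269).

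A pair of semaphorins passed the adjusted p but changed by less than the minimum. SEMA4C, a ligand of plexin B2, was 0.56 higher on the log2 scale (adjusted p = 0.0404, higher in 5 of 5 donors), with groups that did not overlap. SEMA6A, a ligand of plexins A2 and A4, was 0.73 higher (adjusted p = 0.0451, and adjusted p = 0.053 with the donor block), on at most 36 estimated reads. On the log2(normalized count + 1) scale without the block SEMA6A was called, with a fold change of 1.41 (adjusted p = 0.046). SEMA4D, which binds plexin B1 and is the best known semaphorin of immune cells, was at 6.38 ± 1.08 (SD, n = 5) and 5.46 ± 0.92 (SD, n = 5) and was not differentially expressed (-0.92, 95% confidence interval -2.14 to 0.30, adjusted p = 0.303). It was lower with IL-1β in all 5 donors, and with the donor block the 95% confidence interval was -1.66 to -0.18 (adjusted p = 0.0774). For SEMA3C the interval without the block was narrower around 0 (-0.14, 95% confidence interval -0.85 to 0.58), and with the block it was -0.38 to 0.11. Of the variance of SEMA3C over the 10 libraries 95.8% lay between donors. Of the remaining semaphorins, SEMA4A was lower in 5 of 5 donors (-0.43, adjusted p = 0.191) and SEMA6C, a transmembrane ligand, higher in 4 of 5 (0.39, adjusted p = 0.239). SEMA3E, a ligand of plexin D1, differed by 0.35 (adjusted p = 0.455), on at most 8 estimated reads and with reads in only 5 libraries. SEMA4B (0.05) and SEMA4G (-0.05) lay near 0, and SEMA3D and SEMA6B had at most 9 and 57 estimated reads. For SEMA6B 98.0% of the variance lay between donors, and donor 3 had 0 reads in both groups.

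**Figure D2:**
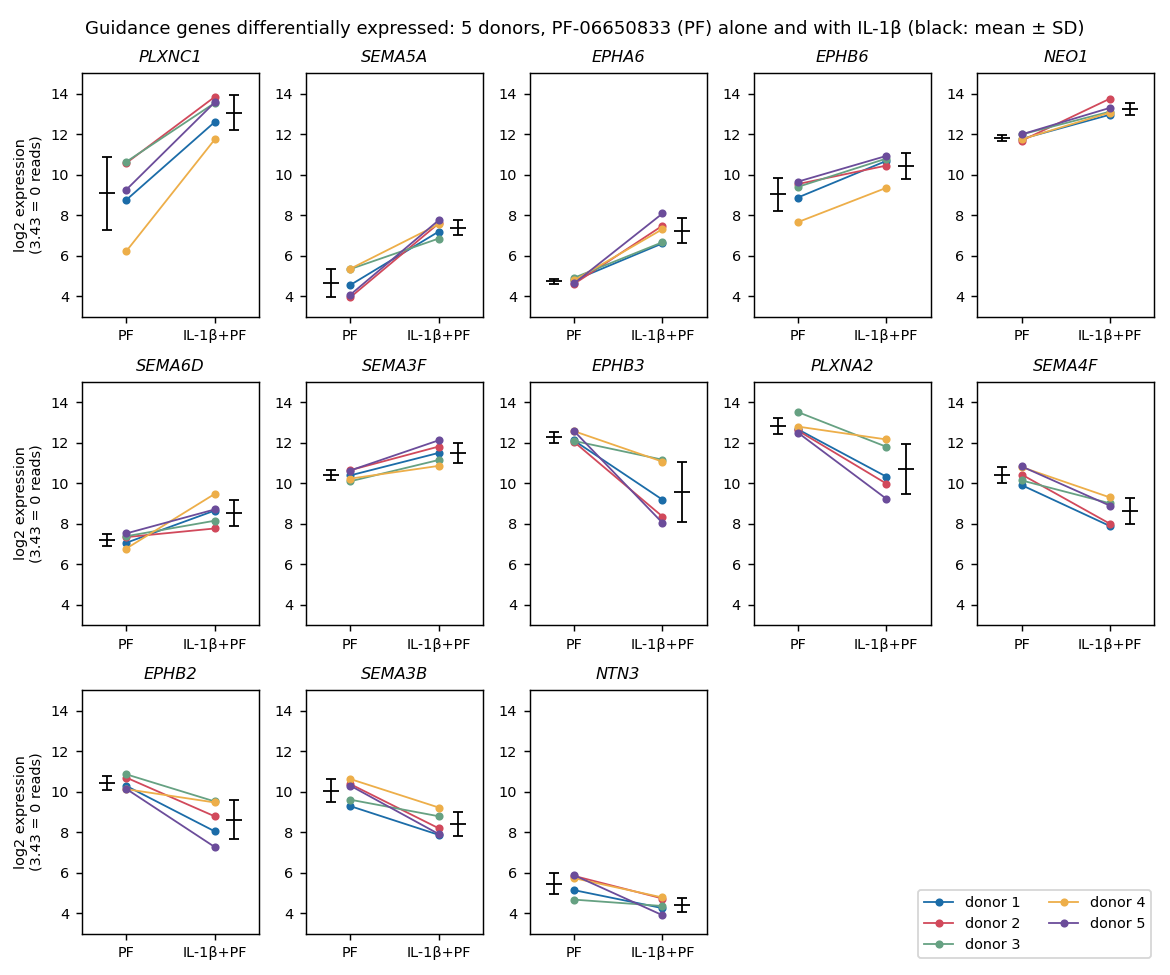
Log2 expression (y axis, where 3.43 stands for 0 reads) of the 13 differentially expressed guidance genes without and with IL-1β (PF and IL-1β+PF on the x axis, all with PF-06650833), with a line for each of the 5 donors and the mean ± SD in black. Every line of the 7 genes from PLXNC1 to SEMA3F goes up and every line of the 6 genes from EPHB3 to NTN3 goes down.

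Plexins are the signalling receptors of semaphorins, and their intracellular part acts on Ras-like GTPases. All 9 plexin genes were tested, and 1 rose and 1 fell. PLXNC1, the receptor of SEMA7A, was at 8.76, 10.58, 10.64, 6.23 and 9.26 in donors 1 to 5 without IL-1β and at 12.60, 13.84, 13.54, 11.74 and 13.57 with it. The lowest library with IL-1β was above the highest without it, although donors differed widely at the start. The mean rose from 9.09 ± 1.8 (SD, n = 5) to 13.06 ± 0.87 (SD, n = 5), a difference of 3.97 (SE 0.76, adjusted p = 0.00587, and adjusted p = 3.96e-04 with the donor block). In estimated reads this was 51 to 1184 against 2418 to 12931. The difference was largest, 5.51, in donor 4, which had the lowest value without IL-1β.

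PLXNA2 encodes an A-type plexin, which forms receptors for class 3 semaphorins with neuropilins and binds class 6 semaphorins directly. It was at 12.66, 12.60, 13.51, 12.79 and 12.50 without IL-1β and at 10.32, 9.98, 11.80, 12.16 and 9.23 with it. The groups did not overlap, but the donors spread more widely with IL-1β. The mean fell from 12.81 ± 0.40 (SD, n = 5) to 10.70 ± 1.24 (SD, n = 5), a difference of -2.11 (SE 0.50, adjusted p = 0.0157). In the fit without the donor block, leaving out donor 1 (-2.06, adjusted p = 0.0778) or donor 2 (-1.99, adjusted p = 0.0749) ended the call. With the block and all donors the adjusted p was 0.00427.

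The other A-type plexins were not differentially expressed. PLXNA1 differed by -0.10 (95% confidence interval -0.41 to 0.22), PLXNA3 by -0.69 (-1.42 to 0.04) and PLXNA4 by -0.29 (-0.94 to 0.36), with adjusted p-values of 0.713, 0.194 and 0.565. PLXNA3 was lower in 5 of 5 donors, and with the donor block its 95% confidence interval was -1.08 to -0.30 (adjusted p = 0.0238), while its fold change was under the minimum. PLXNB3, the receptor of SEMA5A, differed by -0.71 (adjusted p = 0.0671, and adjusted p = 0.0186 with the donor block, lower in 5 of 5 donors) and PLXND1, the receptor of SEMA3E, by 0.38 (adjusted p = 0.385). PLXNB1 (0.18) and PLXNB2 (-0.10), the receptors of SEMA4D and SEMA4C, were not differentially expressed either. The neuropilins, which bind class 3 semaphorins and also VEGF, had overlapping groups. NRP1 was at 10.88 ± 1.52 (SD, n = 5) and 10.84 ± 0.54 (SD, n = 5), with donor 3 at 8.50 without IL-1β and the other 4 donors between 10.35 and 12.18. NRP2 was at 14.69 ± 0.49 (SD, n = 5) and 13.94 ± 0.69 (SD, n = 5), lower in 5 of 5 donors (-0.75, adjusted p = 0.158, and adjusted p = 0.0342 with the donor block). Without the library of donor 3 with IL-1β, NRP2 was differentially expressed (-1.01, adjusted p = 0.0317).

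Eph receptors are receptor tyrosine kinases, and ephrins are their ligands on neighbouring cells, anchored by a lipid in the A class and spanning the membrane in the B class. Of 14 Eph genes 11 were tested, of which 2 rose and 2 fell. EPHB3 was at 12.11, 12.04, 12.08, 12.57 and 12.57 without IL-1β, a narrow range, and at 9.19, 8.36, 11.16, 11.06 and 8.04 with it. With IL-1β the libraries of donors 3 and 4 stayed near 11 and the others were near 8 or 9, all of them below the libraries without IL-1β. The mean went from 12.27 ± 0.27 (SD, n = 5) to 9.56 ± 1.47 (SD, n = 5), a difference of -2.71 (SE 0.57, adjusted p = 0.00947). In the fit without the donor block the call was lost when donor 1 was left out (-2.66, adjusted p = 0.0564). With the block and all donors the adjusted p was 0.00746.

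EPHB2, a second receptor of B-type ephrins, went the same way. Its values were 10.29, 10.70, 10.86, 10.13 and 10.14 without IL-1β and 8.05, 8.79, 9.52, 9.47 and 7.27 with it, again without overlap and again with donors 3 and 4 highest among the latter. It fell from 10.42 ± 0.34 (SD, n = 5) to 8.62 ± 0.96 (SD, n = 5), a difference of -1.80 (SE 0.39, adjusted p = 0.0113). Without donor 1 (-1.69, adjusted p = 0.0626) or donor 2 (-1.78, adjusted p = 0.0579) it was not differentially expressed in the fit without the donor block. With the block and all donors the adjusted p was 0.00456.

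EPHB6, whose kinase domain is inactive, rose. It was at 8.87, 9.54, 9.40, 7.66 and 9.65 without IL-1β and at 10.68, 10.45, 10.79, 9.35 and 10.92 with it. Only the library of donor 4 with IL-1β lay within the range of the other group, and this donor was the lowest in both groups. The means were 9.02 ± 0.82 (SD, n = 5) and 10.44 ± 0.63 (SD, n = 5), a difference of 1.41 (SE 0.40, adjusted p = 0.0352, and adjusted p = 8.10e-04 with the donor block). The call without the block was lost in 9 of the 15 fits that each omitted 1 library or 1 donor. The libraries were those of donor 1 without IL-1β (1.38, adjusted p = 0.0727) and, with IL-1β, of donors 1 (1.35, adjusted p = 0.0818), 2 (1.41, adjusted p = 0.0723), 3 (1.33, adjusted p = 0.0628) and 5 (1.29, adjusted p = 0.0808). The donors were 1 (1.32), 2 (1.54), 3 (1.42) and 5 (1.45), with adjusted p-values of 0.0745 to 0.148.

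EPHA6 had few reads without IL-1β. It was at 4.79, 4.61, 4.92, 4.79 and 4.64 without IL-1β, which is 6 to 9 estimated reads, and at 6.61, 7.49, 6.67, 7.32 and 8.09 with it, 63 to 220 reads. The groups were well apart and the group without IL-1β varied little, with an SD of 0.12. The means were 4.75 ± 0.12 (SD, n = 5) and 7.24 ± 0.61 (SD, n = 5), a difference of 2.49 (SE 0.28, adjusted p = 3.86e-04), and 3.61 on the log2(normalized count + 1) scale.

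No other Eph gene was differentially expressed. EPHA4, which binds ephrins of both classes, was higher in 5 of 5 donors (0.87, 95% confidence interval 0.14 to 1.61, adjusted p = 0.106, and adjusted p = 0.01 with the donor block), and EPHB4, the receptor of ephrin B2, was 0.36 higher (adjusted p = 0.0953, and adjusted p = 0.0220 with the donor block). EPHA2, the best known Eph receptor of epithelial and tumour cells, was at 11.13 ± 0.18 (SD, n = 5) and 11.09 ± 0.61 (SD, n = 5), higher in 2 donors and lower in 3. EPHA3, EPHA7, EPHA8 and EPHA10 had at most 15, 8, 15 and 38 estimated reads in any of the 10 libraries and were not called.

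Of the 8 ephrin genes, all tested, 0 were differentially expressed in limma with or without the donor block, and 1, EFNA4, had an unadjusted p below 0.05. EFNA4 was at 7.03 ± 0.34 (SD, n = 5) and 7.62 ± 0.22 (SD, n = 5), a difference of 0.59 (95% confidence interval 0.15 to 1.03, adjusted p = 0.0727). EFNB1, a ligand of EPHB2 and EPHB3, was at 11.24, 11.25, 11.70, 11.16 and 11.39 without IL-1β and at 11.07, 11.02, 12.13, 11.30 and 10.68 with it. The groups overlapped, and the difference of -0.11 had a 95% confidence interval of -0.61 to 0.40. Of the A class, EFNA1 (-0.31) and EFNA2 (-0.22) were lower in 4 of 5 donors, EFNA3 (0.24) was higher in 4 of 5, and EFNA5 (-0.44) was lower in 3 of 5. EFNB2 and EFNB3 had at most 44 and 8 estimated reads. Whether ephrins as a family differed less than Eph receptors was not tested.

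Netrins are laminin-related secreted ligands, and neogenin (NEO1), DCC and the UNC5 proteins are their receptors. NEO1 also binds the repulsive guidance molecules. It was at 11.76, 11.67, 11.98, 11.74 and 11.99 without IL-1β and at 12.96, 13.75, 13.11, 13.06 and 13.30 with it. The groups were separate, and among the guidance genes NEO1 had the smallest adjusted p in the fit without the donor block, though not in that with it. The mean rose from 11.83 ± 0.15 (SD, n = 5) to 13.24 ± 0.31 (SD, n = 5), a difference of 1.41 (SE 0.15, adjusted p = 2.39e-04).

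Of 4 netrin genes 3 were tested, and NTN3 fell. It was at 5.15, 5.85, 4.68, 5.74 and 5.89 without IL-1β and at 4.26, 4.74, 4.37, 4.79 and 3.91 with it, on 7 to 38 and 1 to 8 estimated reads. It was lower in each donor, and the groups overlapped because donor 3 without IL-1β lay below donors 2 and 4 with it. The means were 5.46 ± 0.53 (SD, n = 5) and 4.41 ± 0.36 (SD, n = 5). The difference was -1.05 (SE 0.28, adjusted p = 0.0265, and adjusted p = 0.0202 with the donor block), and -2.10 on the log2(normalized count + 1) scale. The call without the block was lost in 9 of the 15 fits with 1 library or donor omitted. The libraries were those of donors 2 (-0.95), 4 (-0.98) and 5 (-0.94) without IL-1β and of donors 1 (-1.01) and 5 (-0.92) with it, with adjusted p-values from 0.0628 to 0.0669. The donors were 1 (-1.09), 2 (-1.03), 4 (-1.07) and 5 (-0.82), with adjusted p-values from 0.053 to 0.138.

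NTN1, the founding netrin, was at 8.84 ± 0.53 (SD, n = 5) and 8.92 ± 0.75 (SD, n = 5). The difference was 0.07 (95% confidence interval -0.72 to 0.87, and -0.25 to 0.39 with the donor block), and 94.1% of the variance of NTN1 lay between donors. Among the UNC5 receptors, UNC5B was lower in 4 of 5 donors (-0.63, adjusted p = 0.132) and UNC5A in 4 of 5 (-0.39, adjusted p = 0.527). UNC5D, a further member of that family, was at 7.48, 7.66, 3.43, 5.62 and 7.38 without IL-1β and at 4.69, 4.23, 3.43, 7.22 and 4.09 with it, so donors 1, 2 and 5 were lower, donor 4 was higher, and donor 3 had 0 reads in both groups. Its log2 fold change of -1.58 was not called (95% confidence interval -3.54 to 0.38, adjusted p = 0.267).

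A further 4 genes were differentially expressed with the donor as a block but not without it. SEMA3A and NTN4 were also called without the block when libraries were given array weights. SEMA3A, the class 3 semaphorin that acts through neuropilin 1, was at 7.37, 7.29, 6.22, 5.08 and 5.18 without IL-1β and at 8.97, 8.90, 7.21, 5.55 and 8.73 with it. It was higher in every donor, but the groups overlapped, at 6.23 ± 1.10 (SD, n = 5) and 7.87 ± 1.48 (SD, n = 5). Its log2 fold change of 1.64 had an adjusted p of 0.15 without the donor block and 0.0233 with it. SEMA3A was also differentially expressed without the block when the library of donor 4 with IL-1β was left out (2.22, adjusted p = 0.0231) or the whole of donor 4 (1.93, adjusted p = 0.0473).

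SEMA7A, the lipid-anchored ligand of plexin C1 and of integrins with the beta 1 chain, was at 6.72, 8.56, 7.21, 7.82 and 7.58 and at 7.96, 9.63, 8.35, 7.88 and 9.90, without and with IL-1β. The rise was near 0 in donor 4 and over 1 on the log2 scale in the others. The means were 7.58 ± 0.69 (SD, n = 5) and 8.74 ± 0.96 (SD, n = 5), a difference of 1.16 (adjusted p = 0.115, and adjusted p = 0.0229 with the donor block). NTN4, a netrin of basement membranes, rose in each donor from 7.52 ± 0.75 (SD, n = 5) to 8.62 ± 0.68 (SD, n = 5), by 1.10 (adjusted p = 0.0902, and adjusted p = 0.0130 with the block). Without the library of donor 2 with PF-06650833 alone (1.34, adjusted p = 0.0488) or that of donor 4 with IL-1β (1.36, adjusted p = 0.0290), the fit without the block called it too.

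UNC5C was at 9.46, 7.53, 9.64, 6.31 and 6.58 and at 7.43, 5.77, 9.26, 6.02 and 5.14, without and with IL-1β, lower in every donor. Of its variance 80.2% lay between donors and 14.5% between groups. The means were 7.91 ± 1.57 (SD, n = 5) and 6.72 ± 1.65 (SD, n = 5), and the log2 fold change of -1.18 had an adjusted p of 0.407 without the donor block and 0.0237 with it.

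**Figure D3:**
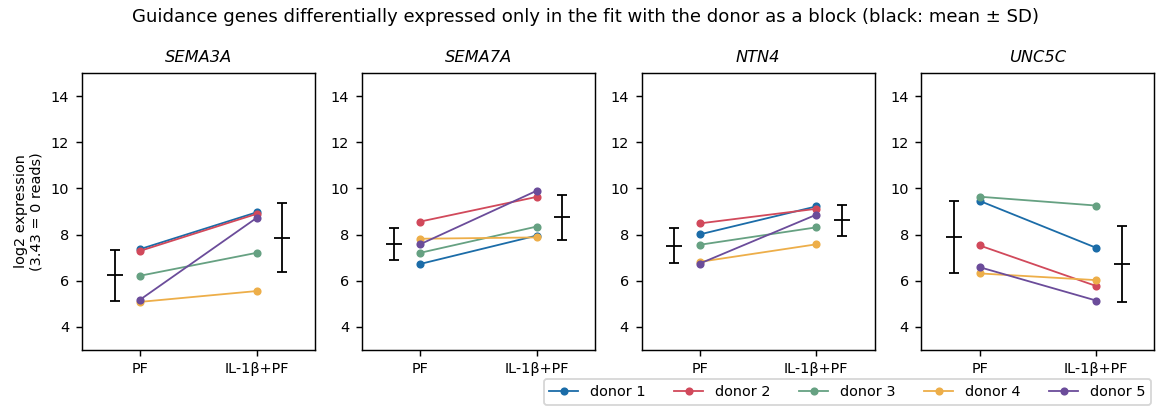
Log2 expression (y axis, where 3.43 stands for 0 reads) of SEMA3A, SEMA7A, NTN4 and UNC5C in the 5 donors without and with IL-1β (PF and IL-1β+PF on the x axis, all with PF-06650833), and the mean ± SD in black. The donors start at different heights, so that the groups overlap while every line of a gene goes in the same direction.

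Slits are secreted ligands of the Robo receptors. Of 3 Slit and 4 Robo genes, 4 were tested and 0 were differentially expressed, with or without the donor block, and 1, ROBO3, had an unadjusted p below 0.05 (0.60, adjusted p = 0.101). SLIT2 was at 10.5, 12.24, 9.79, 12.47 and 12.41 without IL-1β and at 9.52, 10.5, 11.19, 11.09 and 10.00 with it. It was lower in 4 donors and higher in donor 3, the one with the lowest value without IL-1β. Its log2 fold change was -1.02 (95% confidence interval -2.23 to 0.18, adjusted p = 0.243), and without donor 3 it was called (-1.63, adjusted p = 0.0481). ROBO1, a widely expressed Slit receptor, was lower in 5 of 5 donors, at 10.93 ± 0.56 (SD, n = 5) and 10.08 ± 0.99 (SD, n = 5) (-0.86, adjusted p = 0.219, and adjusted p = 0.0388 with the donor block, where it stayed under the minimum fold change). Without the library of donor 4 with IL-1β ROBO1 was differentially expressed (-1.26, adjusted p = 0.0172), as it was without donor 4 (-1.03, adjusted p = 0.0204). SLIT3 differed by -0.28 (95% confidence interval -0.98 to 0.42).

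Donors differed in how far the 13 genes moved. Taking each gene in the direction of its change, the median difference was 1.83, 2.18, 1.13, 1.5 and 2.39 on the log2 scale in donors 1 to 5. Over the 1202 differentially expressed genes of the whole table it was 1.61, 1.78, 1.10, 1.5 and 1.96. Both were smallest in donor 3 and largest in donor 5. Among the 6 genes that fell, the median was -2.13, -2.31, -1.03, -1.18 and -2.63, and for EPHB3 the difference ran from -0.93 in donor 3 to -4.53 in donor 5. The 7 genes that rose did not follow that order, with medians of 1.81, 2.08, 1.40, 2.20 and 1.49. These genes were chosen by the same differences, so the medians are descriptions.

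**Figure D4:**
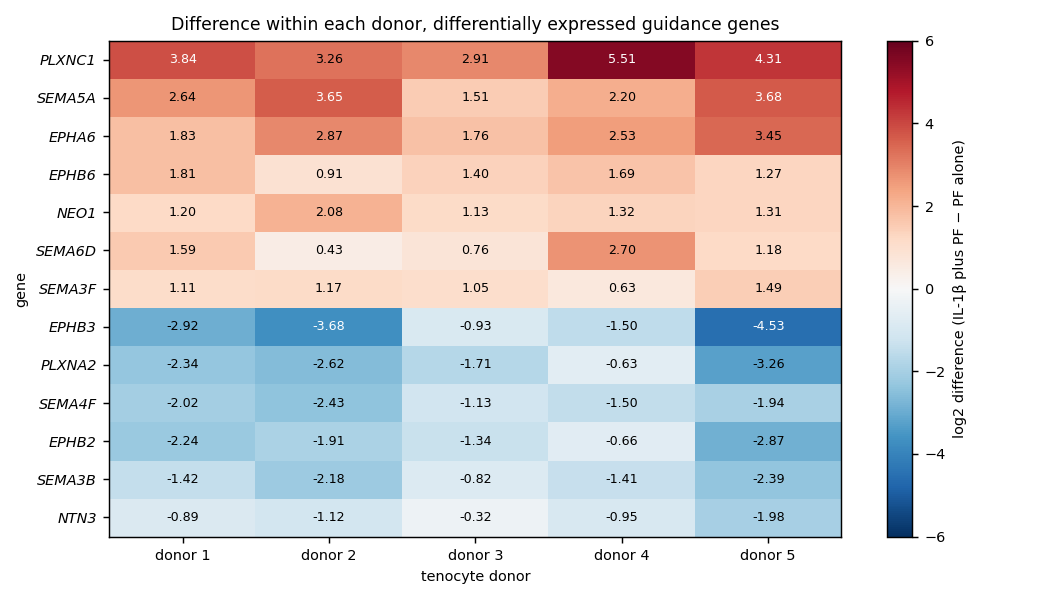
Difference in log2 expression within each of the 5 donors (columns, IL-1β plus PF-06650833 minus PF-06650833 alone) for the 13 differentially expressed guidance genes (rows), with the colour scale running from -6 to 6. EPHB3 and PLXNA2 differed most in donor 5 (-4.53 and -3.26), while PLXNC1 differed most in donor 4 (5.51).

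The list of other genes of guidance signalling held 69 cytoplasmic transducers, co-receptors and further ligands, of which 64 were tested. Of these 10 were differentially expressed, 4 higher and 6 lower (against 3.11% and 3.57% of all genes). Their median log2 fold change was -0.11. With the donor block there were 13 of the 64, 6 higher and 7 lower, where 4.01% of all genes were higher and 4.25% lower. Added with the block were DRAXIN (2.07, adjusted p = 4.98e-04 with the block and 0.136 without), FLRT3 (1.2, adjusted p = 0.00788 and 0.201) and SRGAP3 (-1.05, adjusted p = 0.0438 and 0.176). Among ligands and adhesion partners, VEGFC, a lymphangiogenic factor that can bind neuropilin 2, rose from 11.19 ± 0.15 (SD, n = 5) to 12.68 ± 0.30 (SD, n = 5), by 1.48 (adjusted p = 1.71e-04). L1CAM, an adhesion molecule that forms a semaphorin 3A receptor with neuropilin 1, fell by 1.67 (adjusted p = 0.00387), and its relative NRCAM fell by 2.13 (adjusted p = 0.00696).

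Among the transducers, NGEF, which encodes an exchange factor downstream of Eph receptors, fell from 8.0 ± 0.43 (SD, n = 5) to 6.08 ± 0.47 (SD, n = 5), by 1.92 (adjusted p = 0.00145). RND3, an atypical small GTPase that acts on the actin cytoskeleton, rose by 1.13 (adjusted p = 0.00245), and this was 0.97 without the library of donor 4 with PF-06650833 alone and 0.92 without donor 4. DPYSL3, of the collapsin response mediator family that passes semaphorin signals to the cytoskeleton, fell by 1.28 (adjusted p = 0.00730), and TIAM2, a Rac exchange factor, fell by 1.19 (adjusted p = 0.00743). ABL2, a kinase acting on actin, rose by 1.30 (adjusted p = 0.0111). In all 8 of these genes the groups did not overlap, beside 12.7% of all genes. These 8 were picked by their small adjusted p, which favours separate groups, so this count is a description. The other 2 genes were SDC3, a heparan sulfate proteoglycan (-1.87, adjusted p = 0.0146), and VEGFA, which binds neuropilin 1 (1.18, adjusted p = 0.0384). The groups did not overlap in SDC3 and overlapped in VEGFA. SDC3 lost its call without donor 2 (-1.79) or donor 5 (-1.77). VEGFA kept its call in only 3 of the 15 fits with 1 library or donor omitted, those without donor 3, without the library of donor 3 with PF-06650833 alone and without the library of donor 2 with IL-1β. Other genes of the DPYSL3 family did not fall with it. DPYSL2 (0.50, adjusted p = 0.0208) and DPYSL4 (0.80, adjusted p = 0.0144) were higher but under the minimum fold change. CRMP1 (-0.32) was not called and DPYSL5 was not tested. The list was drawn up by role, so its members act in other pathways as well.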

How the data were processed

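Primary tendon cells from 5 horses were grown in collagen gels with PF-06650833, without or with IL-1β, and their RNA was sequenced. Per the methods and the submitters' processing notes, reads were checked with FastQC (version 0.11.9) and assigned to the EquCab3.0 horse transcriptome with Salmon (version 1.8), with GC-bias correction. The authors' DESeq2 (version 1.36) test was not repeated here. The authors deposited log2 values for 29196 genes, normalized between libraries. The transformation is not given in the sources used here. One lowest value, 3.43, is shared by all libraries, as in a variance-stabilized scale, and stands for 0 reads. The 70 guidance genes were matched to RefSeq symbols of another horse assembly, for names only.

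A gene was tested if at least 5 libraries exceeded the lowest value (17992 genes). The linear model of limma (version 3.58.1) in R (version 4.3.3) had a mean-variance trend, no donor term and Benjamini-Hochberg adjustment over all of them. Differential expression required an adjusted p below 0.05 and a change of 1 or more on the log2 scale in either direction. Every adjusted p printed here is from limma. In a second fit the donor, given by the replicate number, was a block. Libraries of the same horse deviated together from their group means, with correlations across genes of 0.367 to 0.506 over 5 pairs. Inverting the variance-stabilizing function returned normalized counts, and the steps between low values returned the size of 1 read, so reads per gene are estimates. Low values fell on a whole read, within a tolerance of 0.15, in 77.0% to 88.4% of cases per library, where an even spread gives 30%. Alternatives were other thresholds, filters, scales, normalizations and variance models, pseudocounts of 1 and 0.5, and leaving out each library or donor.

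Described were members differentially expressed in either fit, the next largest change in each family with direct partners, members that were not tested, and at most 8 signalling genes by adjusted p. SEMA4C, SEMA6A, SDC3, VEGFA, DRAXIN, FLRT3, SRGAP3, the family of DPYSL3 and the short notes on the remaining members were added after their values were seen. Members, lists and rules were chosen with earlier results of these data known.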

Additional observations from a re-analysis of the deposited data

Results flagged for a closer look

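In 3 of 120 sets of 5 libraries (60 tested genes in each group) 1 library lay far from the other 4, where chance gives about 6. With PF-06650833 alone, donor 1 had SEMA4A at 6.61, against 7.14 to 7.33 in the other donors. In the group with IL-1β, donor 3 had SEMA4C at 10.16, against 9.72 to 9.84 in the others. In the same group donor 4 had SEMA4D at 7.03 (78 estimated reads), against 4.73 to 5.39 (8 to 21 reads). Donor 4 also had the highest SEMA4D value with PF-06650833 alone, 7.75.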

How the results depend on the processing

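Of the 13 guidance genes, 6 (PLXNC1, SEMA5A, EPHA6, NEO1, SEMA3B and SEMA4F) were differentially expressed under all 28 alternatives run, and the other 7 were lost under at least 1. The replicate block, with the donor as the block, gave 17 guidance genes, kept all 13 and changed no call beyond the 4 genes it added. Without a minimum fold change there were 15 guidance genes, and 24 with the replicate block and no minimum. The signalling list then held 24, and 30 with the block, and all genes 2782 and 3996. At an adjusted p below 0.01 there were 8 guidance genes and 719 genes in all. On the log2(normalized count + 1) scale with the replicate block 1809 genes were differentially expressed in all. The 15 fits without a library or a donor had no donor block, so they ignored the pairing by donor. They gave 7 to 16 guidance genes, 8 to 12 of the signalling list and 762 to 1422 of all genes. Leaving out a donor also leaves fewer libraries. The cause of the other changes was not tested. The other alternatives gave counts within 1.5 times the reported ones, and no called gene changed direction under any alternative run (0). Few reads limit SEMA5A, EPHA6, NTN3 and SEMA6A on the deposited scale, and SEMA6A was called on the log2(normalized count + 1) scale.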
